A study of Mus musculus with 38 samples.

Results

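The genes described here encode the subunits of the AMPA and NMDA receptors, the glutamate-gated channels that carry most fast excitatory transmission in the cortex. A list of 10 genes was fixed by name and their counts were read in every library: Gria1, Gria2, Gria3 and Gria4 for the AMPA receptor, and Grin1, Grin2a, Grin2b, Grin2c, Grin2d and Grin3a for the NMDA receptor. These are 10 of 57010 gene IDs in the deposited table, and all 10 were abundant enough to be tested in each sex (17212 genes tested in males, 16435 in females) and over all libraries (17671 genes). RNA was sequenced from the medial prefrontal cortex (mPFC) of male and female mice. Control mice carried SSTCre, which places Cre recombinase in somatostatin-expressing cells, and mutant mice carried SSTCre together with the γ2f/f alleles, so that every animal carried Cre. Each genotype was left without stress (NS) or was given chronic variable stress (CVS) for 21 days, with tissue taken 24 hours after the last stressor. Among males there were 5 NS and 6 CVS controls and 3 NS and 4 CVS mutants; each of the 4 female groups had 5 animals. The age of the animals is not given in the sources used here. The allele acts in a minority cell type, whereas the libraries hold RNA of the whole dissected tissue.

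AMPA receptors are tetramers of GluA1 to GluA4, the products of Gria1 to Gria4. The GluA2 subunit sets their calcium permeability, because its pore codon for glutamine is edited in the RNA to one for arginine. NMDA receptors combine the obligatory GluN1 subunit (Grin1) with GluN2 subunits: in the forebrain GluN2B dominates early and GluN2A is added with maturation, GluN2D is found mainly in interneurons, and Grin2c mRNA in the cortex is found largely in astrocytes. GluN3A (Grin3a) lowers calcium permeability and is known for its prominence in the juvenile brain and in somatostatin interneurons.

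The pore codon shows how alike the AMPA receptor genes are and where they differ, and is given here with 30 bases of reference sequence around it (GRCm38, GENCODE vM21), 5′ to 3′ on the coding strand with the glutamine codon of the Q/R site, the codon edited in Gria2, in capitals:
Gria1: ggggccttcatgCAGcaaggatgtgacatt
Gria2: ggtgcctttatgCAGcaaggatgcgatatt
Gria3: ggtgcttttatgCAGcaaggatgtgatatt
Gria4: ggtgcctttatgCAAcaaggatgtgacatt
All 4 codons stand for glutamine in the genome, and the windows show how little the genes differ around the site. The Gria2 window lies at chr3:80706896-80706925 on the minus strand, in exon 11 of the 16 exons of the transcript used, and the Gria4 window at chr9:4464122-4464151 on the minus strand, in exon 12 of 17. The Gria1 window lies at chr11:57243082-57243111 and the Gria3 window at chrX:41610253-41610282, both on the plus strand and in exon 11 of 16. The gene counts do not show how much of the Gria2 RNA was edited. The longest exact stretch shared by the reference transcripts of any pair of the 10 genes was 59 bases (Gria3 and Gria4), against reads of 150 bases.

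Library totals were 17.64 to 27.51 M counts with a median of 20.51 M. The most abundant gene ID held between 0.04509 and 7.826% of the counts of a library. Markers of cortical glutamatergic neurons, including Slc17a7 and Neurod2, summed to between 2420 and 2801 CPM (counts scaled to a common library total) in every library. Cdhr1, a gene of olfactory bulb projection neurons, set 3 male libraries apart: mutant NS replicate 2 (25.02 CPM), mutant NS replicate 3 (26.58 CPM) and control CVS replicate 1 (16.01 CPM). Elsewhere Cdhr1 did not exceed 5.349 CPM. Unstressed females held 1.754 to 3.299 CPM of it as controls and 3.475 to 5.109 CPM as mutants (log2 fold change 0.69, adjusted p 0.242 by edgeR). Other tested olfactory bulb markers had negative estimates between genotypes in unstressed males. The log2 fold changes there were 2.71 for Cdhr1, -0.23 for Doc2g, -0.25 for Th, -0.16 for Pcp4, -0.23 for Sp8 and -0.52 for Trh. None passed, and what set the 3 libraries apart was not tested. For several results that rest on the 3 male libraries with high Cdhr1 the value without them is also given. That leaves male mutant NS with 1 library, assumed to vary like the other groups. In whole tissue, fewer cells of a type and less RNA per cell cannot be told apart.

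Grin1 and Gria1 were the most abundant of the 10 transcripts and Grin2d the least (levels as CPM per kilobase of merged exons). In males Grin1 averaged 62.55 ± 2.021 (SD, n = 18) and Gria1 59.85 ± 2.159 CPM per kilobase. They were followed by Gria2 at 33.02, Gria3 at 28.6, Grin2b at 19.24, Gria4 at 15.15, Grin2c at 11.1, Grin2a at 9.328, Grin3a at 4.445 and Grin2d at 3.211. Every neighbouring pair in that male order kept its order in all 18 libraries, apart from Grin1 and Gria1, where Grin1 was higher in 15. In females the leading pair was Gria1 at 62.57 ± 2.523 (SD, n = 20) and Grin1 at 59.22 ± 2.326 CPM per kilobase, with Gria1 higher in 15 of 20 libraries. The female order went on with Grin2b at 33.47, Gria2 at 32.34, Gria3 at 27.73, Gria4 at 13.81, Grin2a at 10.94, Grin2c at 10.54, Grin3a at 4.514 and Grin2d at 2.982. Grin2b and Gria2 were not separated (Grin2b was higher in 13 of 20 libraries), nor were Grin2a and Grin2c (Grin2a higher in 13 of 20), and Grin3a was above Grin2d in 19 of 20.

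**Figure D1:**
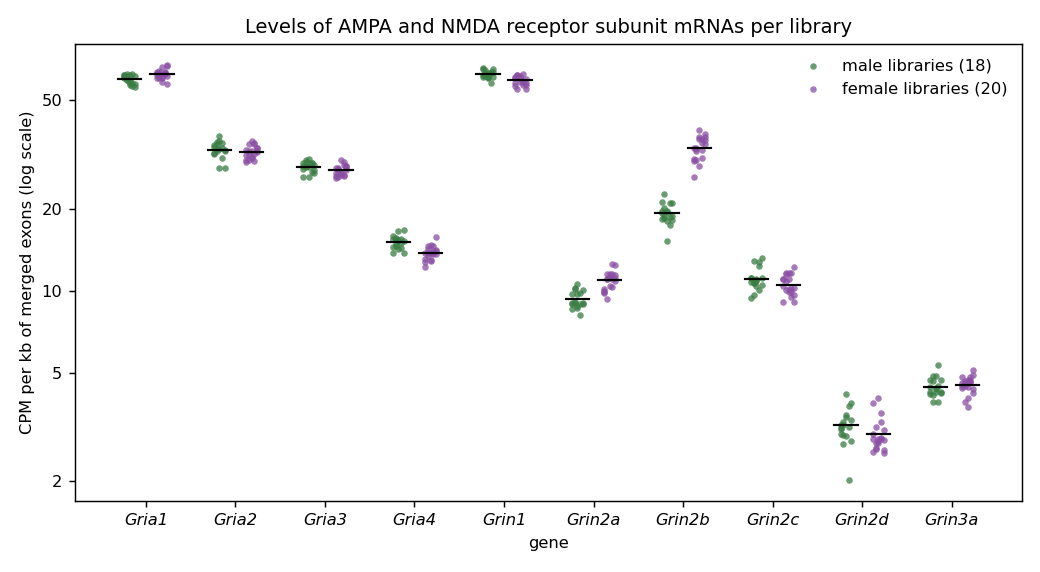
Level of each subunit gene in CPM per kilobase of merged exons (log axis). Each point is a library (18 male, 20 female) and each black line the mean of a sex. Grin1 and Gria1 lie near 60 in both sexes, Grin2d near 3, and Grin2b is the gene whose male and female points lie farthest apart.

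Grin2b, the subunit that dominates early in development, had no overlap between the male and the female libraries. It ranged from 380.4 to 562.2 CPM with a median of 474.3 in 18 male libraries and from 652.2 to 968.4 CPM with a median of 831.7 in 20 female libraries. The ratio of Grin2a to Grin2b, from levels per kilobase, was 0.4234 to 0.5767 in males and 0.2887 to 0.3745 in females, again without overlap. Grin1 made up 54.41 to 59.04% of the summed level per kilobase of the 6 NMDA genes in males and 45.79 to 52.57% in females. Male and female animals carry names of separate series in the labels, so sex and cohort cannot be told apart in these levels, and no test was made between them. How many of all genes had no overlap between the sexes was not counted, so the separation cannot be called particular to Grin2b. Cell type markers differed between the same libraries: 6 endothelial markers summed to 165.6 to 240.8 CPM in males and 78.98 to 156.5 CPM in females, and 7 oligodendrocyte markers averaged 1424 ± 239.5 and 1189 ± 100.8 CPM. Their part in the Grin2b difference was not tested. Within the AMPA receptor genes, the Gria2 share of the summed level per kilobase of Gria1 to Gria4 was close in both sexes, 22.0 to 26.15% in males and 22.43 to 24.71% in females.

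Within groups Gria1 and Grin1 were the steadiest, with coefficients of variation of CPM between 1.998 and 4.488% for Gria1 and between 2.08 and 4.727% for Grin1. The widest spreads were those of Grin2d, up to 20.93% in male control CVS, and of Grin2b, up to 19.61% in male mutant NS, where replicate 2, which is high in Cdhr1, lay at 380.4 CPM and the others at 524.2 and 562.2. Grin2d was also the least counted gene, with 263 to 586 counts per library. Its annotation shares 643 exonic bases with Gm45441 on the opposite strand, which held 96 to 204 counts, and the strand setting of the counting is not given in the sources used here.

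**Figure D2:**
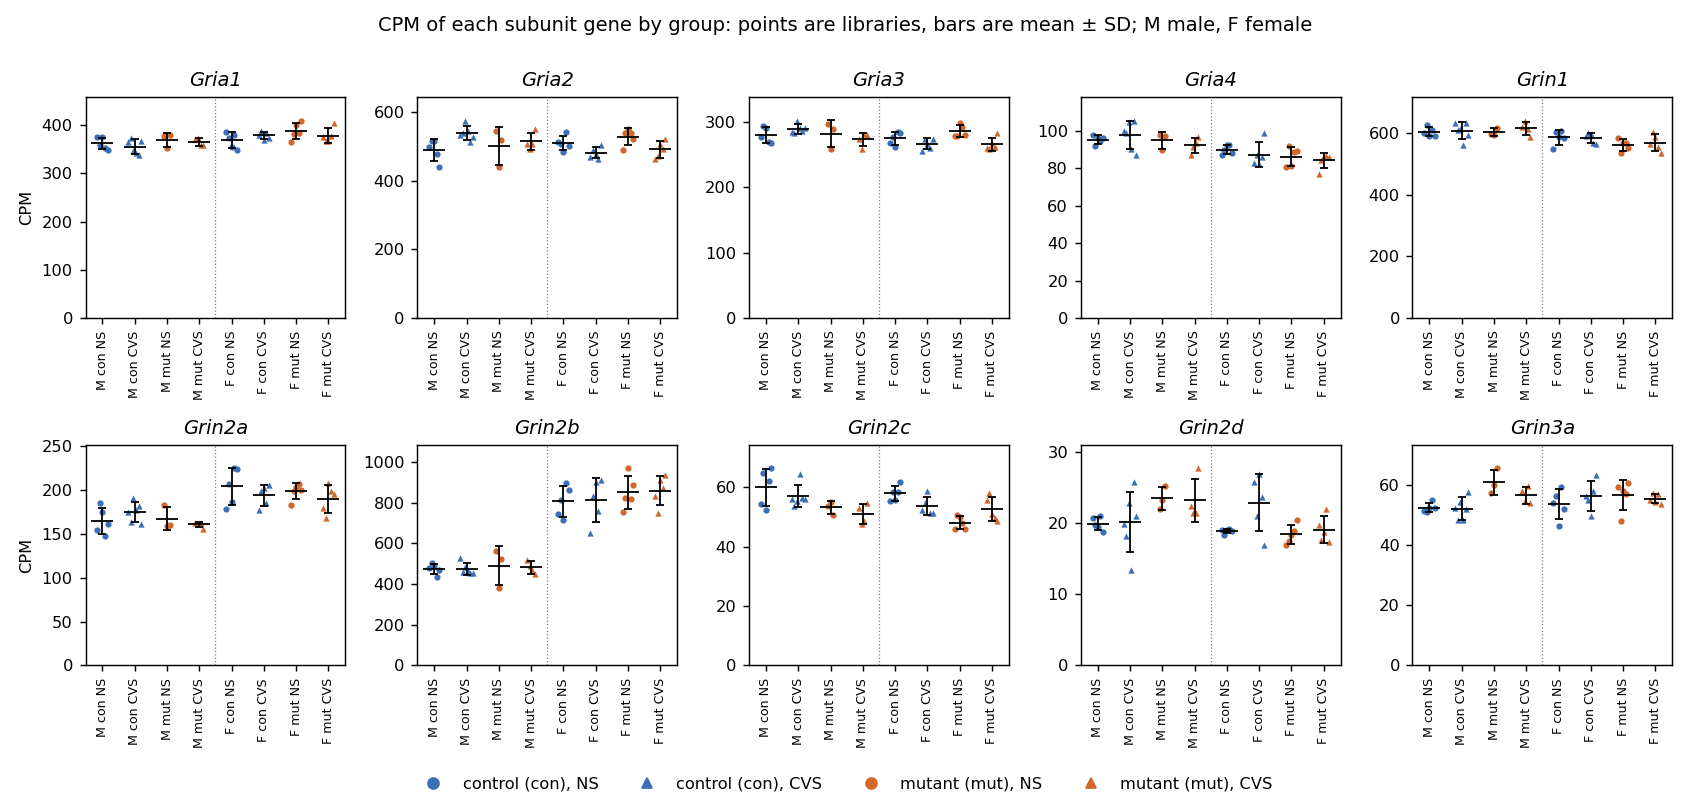
CPM of the 10 genes in the 8 groups. Each point is a library, circles are NS and triangles CVS, blue is control and orange mutant, and bars give the mean and SD. The female mutant NS libraries of Grin2c (45.88 to 50.64 CPM) lie below all female control NS libraries (55.55 to 61.84 CPM), and most other genes overlap between all groups of a sex.

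The first question was whether the genotype moved any subunit transcript. Grin2c, the GluN2C subunit gene (chr11:115249169-115267243, minus strand, GRCm38), fell in mutants, and it was the only one of the 10 genes that passed the test. In females without stress, control libraries held 55.55, 58.43, 55.63, 58.6 and 61.84 CPM of Grin2c and mutant libraries 45.88, 50.64, 50.07, 47.91 and 45.98 CPM. All 5 mutant libraries lay below the lowest control library. The means were 58.01 ± 2.592 and 48.1 ± 2.224 CPM (SD, n = 5 each), a log2 fold change of -0.27 ± 0.05378 (SE), or -17.1% with a 95% interval of -23.1 to -10.6% (adjusted p 0.0248, edgeR quasi-likelihood test, Benjamini-Hochberg over all genes). In this comparison 0.128% of all genes tested passed the threshold of 0.05, and 1 of 10 members did. The call was lost when female control NS replicate 2, 4 or 5 or female mutant NS replicate 1 or 5 was left out, with adjusted p values up to 0.1401 and log2 fold changes from -0.29 to -0.24.

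The other strata gave lower Grin2c means in mutants without passing on their own. In males without stress the controls held 54.39, 64.71, 52.51, 62.04 and 66.43 CPM and the mutants 53.87, 55.07 and 50.79 CPM, so that the groups overlapped; the log2 fold change was -0.18 ± 0.07221 (adjusted p 0.7668). It was -0.16 without the 3 libraries with high Cdhr1. In males under stress the controls ranged from 53.8 to 64.41 CPM with a median of 56.24 (n = 6), and the mutants held 52.97, 47.58, 48.76 and 54.88 CPM, a log2 fold change of -0.16 ± 0.06396 (adjusted p 0.5537). In females under stress the controls held 52.26, 54.82, 58.77, 51.28 and 51.44 CPM and the mutants 55.6, 58.15, 51.08, 49.76 and 48.58 CPM. These female CVS groups lay over each other, with a log2 fold change of -0.03 ± 0.05366 (adjusted p 0.9573). Over all strata, 15 of 17 mutant libraries lay below the mean of their controls and 12 of 17 below the lowest of them.

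Averaged over sexes and stress states with equal weight, Grin2c was 10.4% lower in mutants (log2 fold change -0.16 ± 0.03063, 95% interval -0.22 to -0.10, adjusted p 0.002186 by edgeR, 38 libraries). In this average 1.09% of all genes passed (60 higher, 133 lower), and again 1 of 10 members. Leaving out any of the 38 libraries in turn kept the call, with log2 fold changes from -0.17 to -0.15 and adjusted p from 0.000597 to 0.01019. Without the 3 libraries with high Cdhr1 it was -0.15 (adjusted p 0.03132). The median log2 fold change of the 10 genes was 0.00, as was that of all genes.

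Astrocyte markers had estimates of the same sign as Grin2c. Of 7 astrocyte markers (Aqp4, Gfap, Aldh1l1, Gja1, Slc1a3, S100b and Fgfr3), all 7 had negative log2 fold changes averaged over strata, with a median of -0.08, and S100b passed the test (-0.15 ± 0.02749, adjusted p 0.001663). None of the 7 was at 0. Their summed level ranged from 1251 to 1386 CPM in female control NS and from 1166 to 1313 in female mutant NS, from 1139 to 1363 in female control CVS and from 1200 to 1329 in female mutant CVS. In males it ranged from 1237 to 1363 CPM in control NS, from 1097 to 1278 in mutant NS, from 1126 to 1293 in control CVS and from 1121 to 1235 in mutant CVS. As a percentage of that sum, Grin2c was 4.17 to 4.686% in female control NS and 3.495 to 4.294% in female mutant NS, and the ranges overlapped. All 7 oligodendrocyte markers (median -0.15), all 6 microglial markers and all 6 endothelial markers also had negative values, none of them past the threshold. Of 5 oligodendrocyte precursor markers, Pdgfra was at 0.00 and Cspg4 (-0.05), Olig1 (-0.10), Olig2 (-0.08) and Gpr17 (-0.04) were negative. None of these passed either. Of 10 interneuron markers, Sst, the peptide gene of the Cre-expressing cells, rose by 0.19 ± 0.03361 (adjusted p 0.001434), with 3 positive and 7 negative values in all. Among striatal markers, Penk fell by 0.24 ± 0.0453 (adjusted p 0.00234) and Tac1 by 0.27 ± 0.06458 (adjusted p 0.02114). Across libraries, after removal of group means, the median Pearson's r of Grin2c with the astrocyte markers was 0.3198 in males and -0.02785 in females. It was 0.4865 and 0.2229 with the oligodendrocyte markers, and 0.2912 and 0.4374 with the oligodendrocyte precursor markers. With the microglial markers it was 0.3428 and 0.09846, and with the endothelial markers 0.04247 and 0.3186. The part of the marker shifts in the Grin2c result was not tested.

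**Figure D3:**
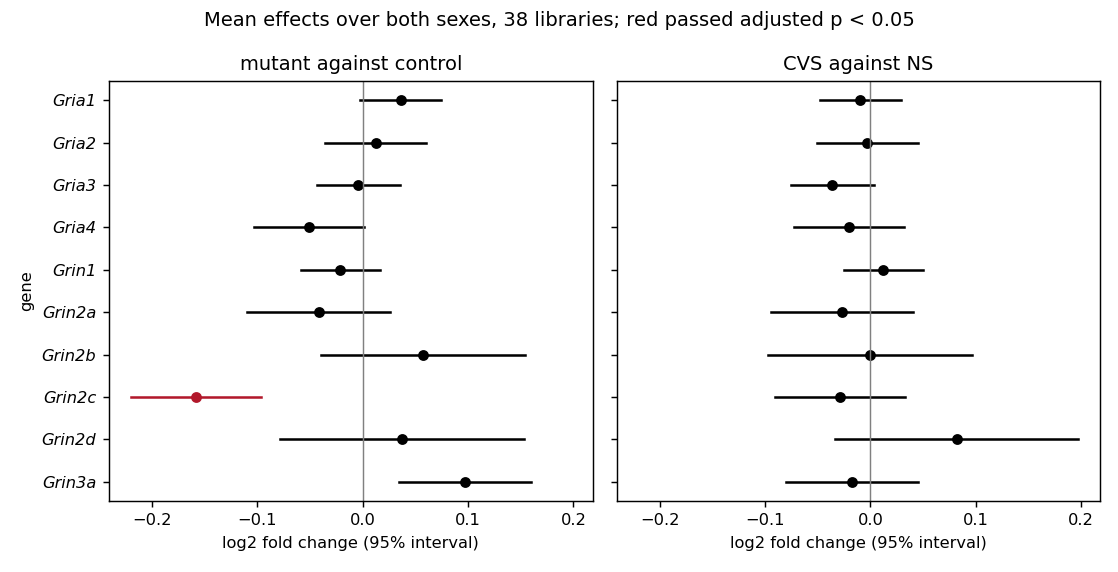
Log2 fold change with its 95% interval for each gene, averaged over both sexes, for mutant against control (left, averaged over stress states) and CVS against NS (right, averaged over genotypes). Red marks an adjusted p under 0.05. Grin2c at -0.16 is the only red point, and the intervals of 8 of the other genes include 0 on the left.

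No other subunit gene passed in any genotype comparison. Grin3a, which is enriched in somatostatin interneurons, had the next smallest p in the average over strata, with a log2 fold change of 0.10 ± 0.03116 (adjusted p 0.138). In males without stress, control libraries held 51.34, 50.99, 52.29, 54.77 and 52.34 CPM of Grin3a and mutant libraries 57.3, 59.71 and 65.39 CPM. The groups did not overlap, with a log2 fold change of 0.21 ± 0.06014 (adjusted p 0.6648). The share of all genes whose groups did not overlap was not counted in any comparison, so lack of overlap is only a description. Without the 3 libraries with high Cdhr1, 2 of which are among these 3 mutants, the log2 fold change was 0.13. With all libraries, 0.0174% of genes passed in this comparison and none of the 10 members. In males under stress (0.0523% of genes and 0 of 10 members passed) the Grin3a log2 fold change was 0.12 ± 0.05347 (adjusted p 0.6419), and in females it was 0.08 ± 0.06253 without stress and -0.02 ± 0.06237 under stress (adjusted p 0.817 and 0.9708).

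Grin2d, the interneuron-enriched GluN2D subunit gene, had estimates of opposite sign in the sexes. Male control NS libraries held 18.79 to 20.99 CPM and male mutant NS libraries 22.06, 23.32 and 25.22 CPM. These groups did not overlap, which is again only a description. The log2 fold change was 0.23 ± 0.1341 (adjusted p 0.8948), or 0.14 without the libraries with high Cdhr1. In females under stress, where 0.0243% of genes and none of the members passed, controls held 25.81, 21.04, 26.96, 23.66 and 16.96 CPM and mutants 19.8, 17.68, 18.79, 22.07 and 17.34 CPM, a log2 fold change of -0.25 ± 0.0878 (adjusted p 0.5708). The difference of the genotype effect between sexes was -0.36 ± 0.1141 for Grin2d (female minus male, adjusted p 0.4292) and did not pass. 0.00566% of genes, a single gene, passed that test of the difference, and none of the 10 members did.

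None of the AMPA receptor genes and none of the genes Grin1, Grin2a and Grin2b passed between genotypes. Averaged over strata, the 4 AMPA genes had log2 fold changes from -0.05 (Gria4) to 0.04 (Gria1), with 95% intervals inside -6.895 to 5.316%. Grin1, the obligatory subunit, had -0.02 ± 0.0186, Grin2a -0.04 ± 0.03334 and Grin2b 0.06 ± 0.04743. Without the libraries with high Cdhr1 these were -0.01 for Grin2a and 0.12 for Grin2b (adjusted p 0.9751 and 0.3939), and in unstressed males the Grin2b value went from 0.04 to 0.24 (adjusted p 0.5301). Gria3 in stressed males also had groups without overlap. Controls ranged from 282.6 to 301.9 CPM (median 288.3, n = 6) and mutants held 273.7, 258.9, 281.2 and 280.5 CPM. The log2 fold change was -0.08 ± 0.0415 (adjusted p 0.6686), and the share of all genes without overlap was not counted here either.

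The second question was whether chronic stress moved the subunit transcripts, and no member passed in any stress comparison. Averaged over both sexes and genotypes, 0.017% of all genes passed (3 genes) and 0 of 10 members did by edgeR, DESeq2 or limma voom; none of the 10 had an unadjusted p under 0.05. Log2 fold changes ran from -0.04 (Gria3) to 0.08 (Grin2d), and the 95% intervals lay between -6.501 and 14.67%. The other values were -0.01 for Gria1, -0.02 for Gria4, 0.01 for Grin1, -0.03 for Grin2a, -0.03 for Grin2c and -0.02 for Grin3a, with Gria2 and Grin2b nearest to 0. Without the libraries with high Cdhr1, Grin2a and Grin2b had the lowest values, both -0.06, with Gria3 at -0.06 and Grin2d at 0.10, and none passed. With all libraries, the intervals of the 4 AMPA genes lay between -5.096 and 3.155%.

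Gria2, the subunit gene that sets calcium permeability, had stress estimates of opposite sign in the sexes. Male control NS libraries held 498.8, 515.5, 515.2, 477.7 and 439.2 CPM and male control CVS libraries ranged from 513.5 to 574.7 CPM with a median of 536.5 (n = 6). All 6 stressed males lay above the unstressed mean of 489.3 CPM, with 1 of them within the unstressed range, and the log2 fold change was 0.13 ± 0.0482 (adjusted p 0.5835). In female controls it was -0.08 ± 0.03797, from 509.9 ± 21.7 to 481.7 ± 16.38 CPM (adjusted p 0.5388), and in female mutants -0.10 ± 0.03796, from 528 ± 24.39 to 491.4 ± 23.93 CPM (adjusted p 0.4717). All 5 stressed females of each genotype lay below the unstressed mean. In male mutants the value was 0.03 ± 0.06078, and -0.09 without the libraries with high Cdhr1, so the male mutant estimate changed sign with 2 of its 3 unstressed libraries. The difference of the stress effect between sexes was -0.18 ± 0.04773 (female minus male, unadjusted p 0.0004459, adjusted p 0.3303), and -0.12 without those libraries. No gene of the table passed this test of the difference (percent passed 0, with 1269 genes at an unadjusted p under 0.05, and 2 genes passing by DESeq2).

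The ratio of Gria1 to Gria2, from levels per kilobase, is given as a description. In male controls it was 1.795 to 2.043 without stress and 1.546 to 1.797 under stress. In female controls it was 1.786 to 1.932 without stress and 1.898 to 2.117 under stress. The mutant ranges overlapped more widely, 1.777 to 2.055 against 1.672 to 1.95 in males and 1.826 to 2.015 against 1.863 to 2.081 in females.

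Other stress estimates with small unadjusted p values were those of Grin2d and Gria3 in females. Grin2d in female controls was 18.4 to 19.14 CPM without stress and 16.96 to 26.96 CPM under stress, a log2 fold change of 0.27 ± 0.08792 (adjusted p 0.3839), with 4 of 5 stressed libraries above the unstressed mean. Gria3, the X-linked AMPA gene, went from 285.7 ± 9.325 to 266 ± 9.714 CPM in female mutants, a log2 fold change of -0.10 ± 0.03577 (adjusted p 0.4292), with all 5 stressed libraries below the unstressed mean. Of all genes, 0.0116% passed in male controls (2 genes, and 23 by DESeq2). None passed by edgeR in male mutants (percent passed 0; 581 genes at an unadjusted p under 0.05, 0 by DESeq2), female controls (percent passed 0; 1433 genes, 28 by DESeq2) or female mutants (percent passed 0; 1300 genes, 27 by DESeq2).

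**Figure D4:**
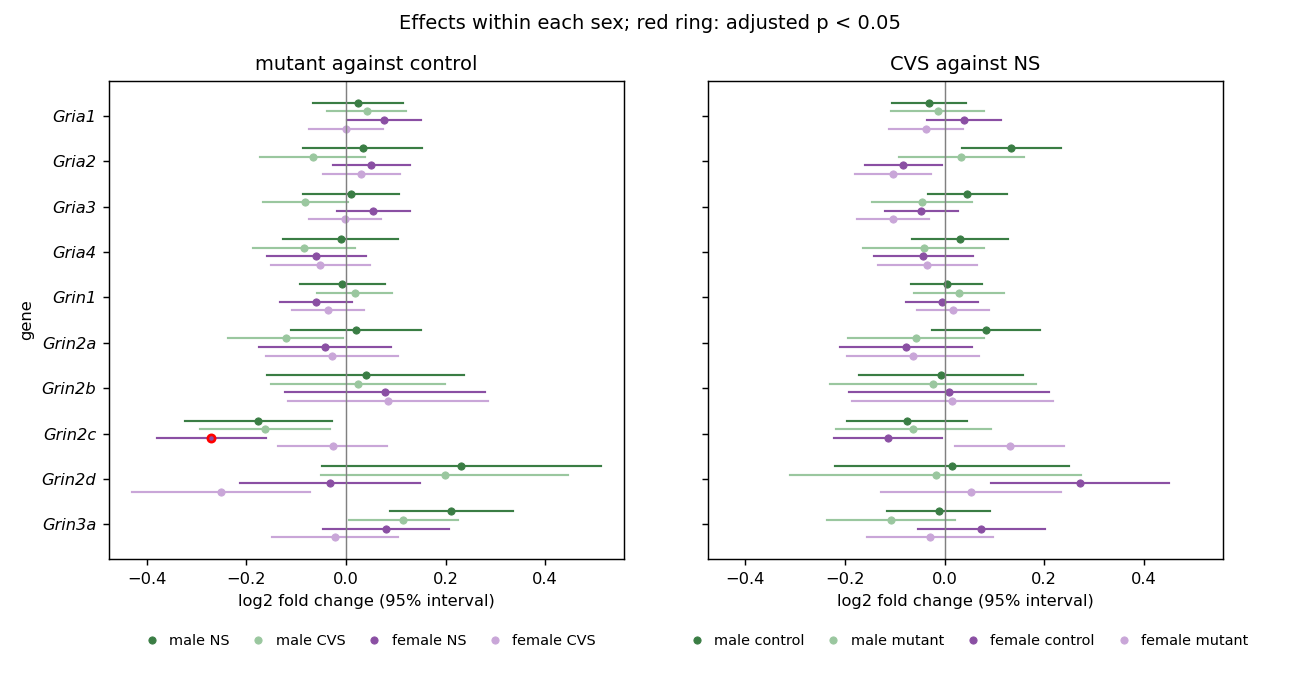
Log2 fold change with its 95% interval for each gene within each sex, for mutant against control at each stress state (left) and CVS against NS in each genotype (right). The red ring marks the only adjusted p under 0.05, Grin2c in unstressed females at -0.27. For Gria2 on the right the male estimates (0.13 and 0.03, the second negative without the libraries with high Cdhr1) lie above 0 and the female ones below it.

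The third question was whether stress acted differently in mutants, tested as the interaction of genotype and stress. No member passed within males, within females or over both sexes, and neither did any other gene by edgeR (percent passed 0 in each, with 720, 658 and 877 genes at an unadjusted p under 0.05, and 0 genes by DESeq2 and by limma voom). Grin2c in females had the smallest unadjusted p among the members. Its stress log2 fold change was -0.11 ± 0.0534 in controls and 0.13 ± 0.05403 in mutants, and the interaction was 0.24 ± 0.07596 (unadjusted p 0.002835, adjusted p 0.9999). In males the Grin2c interaction was 0.01 ± 0.09618, and over both sexes 0.13 ± 0.06118 (adjusted p 0.931). The other members' interactions over both sexes were -0.03 for Gria1, -0.06 for Gria2, -0.08 for Gria3, -0.03 for Gria4, 0.02 for Grin1, -0.07 for Grin2a, -0.01 for Grin2b, -0.13 for Grin2d and -0.10 for Grin3a, each with a 95% interval that included 0.

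Genes that act with these receptors were read from 6 lists. Averaged over strata, 3 of their 76 genes fell in mutants and none rose, where 1.09% of all genes passed (60 higher, 133 lower). Cacng2, the AMPA receptor auxiliary subunit stargazin, fell by 0.10 ± 0.02488 on the log2 scale (adjusted p 0.02674), as the only call among 20 AMPA auxiliary and biogenesis genes, of which 7 had positive and 13 negative values. Slc1a2, the main glial glutamate transporter, fell by 0.10 ± 0.02437 (adjusted p 0.03542), and Slc7a10, the transporter of the co-agonist D-serine, fell by 0.17 ± 0.03941 (adjusted p 0.01741). Both belong to the list of 10 genes of glutamate and co-agonist handling and are known astrocyte genes, and the astrocyte markers given above had estimates of the same sign, of which S100b alone passed. None of 26 scaffold and trafficking genes (5 positive, 21 negative, median -0.03), 10 kainate, delta and other subunit genes, 7 metabotropic receptor genes and 3 RNA editing enzymes passed. In the average stress effect 0 of the 76 passed by edgeR, where 0.017% of all genes did. The smallest p values were those of Camk2b, a kinase that phosphorylates AMPA receptors (0.07 ± 0.02089, adjusted p 0.316), and Grik4, a kainate receptor subunit (0.09 ± 0.03128, adjusted p 0.3666). In the interaction over both sexes 0 passed as well, as did 0% of all genes. Lrrtm1, a synaptic adhesion protein, had 0.18 ± 0.0624 (adjusted p 0.917) and Slc7a10 0.22 ± 0.07873 (adjusted p 0.917).

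Among the members, libraries that were high for a gene after removal of group means tended to be high for certain others; these correlations are across 18 male and 20 female libraries that share depth scaling, and carry no test. Gria2 and Gria3 had Pearson's r of 0.8759 in males and 0.7507 in females, and Gria3 and Grin2b 0.62 and 0.7857. Gria1 and Grin2c had -0.6321 and -0.3432. Of 13858 genes compared, the 2 most like a member in both sexes were Ank2 and Atrx for Gria2 (r of 0.8376 in males and 0.8547 in females for Ank2), Usp34 and Dgkh for Gria3 (0.8538 and 0.8361 for Usp34), Atxn1 and Prkca for Grin2a (0.8289 and 0.8755 for Atxn1), Slc8a1 and Gabrb1 for Grin2b (0.7683 and 0.7357 for Slc8a1), and Pls3 and Esr1 for Gria1 (0.8017 and 0.7597 for Pls3). They were Sez6l2 and Clstn1 for Grin1, Zdhhc17 and Kdm6a for Gria4, Unc45a and Man2a2 for Grin2d, and Zfp523 and Smpd2 for Grin2c. For these 4 genes the lower of the male and female r of the closest gene lay between 0.6055 and 0.6704.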

How the data were processed

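The authors deposited a table of raw counts per gene ID for 38 libraries; per the submitters' processing notes the tools were fastp 0.23.2, STAR 2.7.10b and featureCounts on GRCm39, while the sources used here name neither the annotation release nor the strand setting. Each library is from a separately named animal in the labels; genotypes follow the labels without a further check. From the deposited counts, library totals were scaled with TMM and tested with edgeR 4.0.16 (R 4.3.3; quasi-likelihood, robust dispersion, filterByExpr with a minimum count of 10 and a minimum total count of 15, Benjamini-Hochberg threshold 0.05) on group means, per sex and over 8 groups. SE was derived from the log2 fold change and its F statistic. The fits were also run on simulated counts, with the same spread for all genes and planted changes larger than those of the members. Those runs do not bear on changes as small as the ones reported here. Exon lengths and coordinates come from GENCODE vM21 (GRCm38), another build than that of the counts, and were used only for lengths, symbols and reference sequence. Labels give no replicate pairing. DESeq2 1.42.0, limma voom 3.58.1, DESeq2 size factors, no filter, no robust dispersion, the 2 groups alone, and leaving out each library, or the 3 with high Cdhr1, were alternatives; leaving the most abundant ID and the mitochondrial transcripts out of the counts was added after seeing the data. The 10 members and all gene lists were chosen with earlier results of these data known. All 10 members were tested in every comparison; the figures show all of them for the stress and genotype effects, and the text gives in full those with the smallest p values. Pathway genes are named where they passed (otherwise the 2 smallest p values in pooled comparisons), and for each member the 2 most alike genes by the lower of the male and female correlation of log2 CPM deviations (pseudocount 1); a few genes that these rules name are not reported here. Figures were drawn with matplotlib. P-values set each effect against the spread between animals, estimated over all groups of a fit and with information shared across genes.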

Additional observations from a re-analysis of the deposited data

Results flagged for a closer look

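In 70 groups of 4 to 6 libraries (10 genes in 7 groups; the male mutant NS group of 3 was not tested), 7 held a library whose gap to its nearest neighbour passed Dixon's 95% limit, where chance gives about 1 in 20 groups. Gria4 was high in female control CVS replicate 5 (99.17 CPM, the next 87.06) and low in female mutant CVS replicate 1 (77.03, the next 84.59). Grin2a was low in male mutant CVS replicate 4 (155.7 CPM, the next 161.4), the library in which Grin2d was high (27.75, the next 22.45). Grin2c was high in male control CVS replicate 4 (64.41 CPM, the next 56.44). Grin2d was low in female control NS replicate 2 (18.4 CPM, the next 18.95), in a group with a range under 1 CPM. Grin3a was low in female mutant NS replicate 2 (47.99 CPM, the next 56.93).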

How the results depend on the processing

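The member calls kept their side of the threshold under every alternative run except in unstressed females between genotypes, where the count of members passing ranged from 0 to 1 over 10 runs that each left out a library, with 5 runs at 0. No paired analysis was possible because the labels give no replicate numbers that pair animals. No alternative brought another member past the threshold. DESeq2 passed more genes of the whole table than edgeR (299 against 193 for genotype averaged over strata, 88 against 21 for genotype in unstressed females, 14 against 4 in stressed females, 27 against 9 in stressed males, 5 against 3 in unstressed males, 35 against 3 for average stress, 23 against 2 for stress in male controls, 4 against 1 for the sex difference of genotype). Limma voom passed 0 genes for genotype in unstressed males and for stress in male controls and 6 for genotype in stressed males. Leaving out a library moved the first of these counts to between 101 and 233 and the second to between 6 and 47; it moved average stress (3) to between 0 and 16, genotype in stressed males (9) to between 1 and 12, in unstressed males (3) to between 0 and 6 and in stressed females (4) to between 2 and 5. Stress ranged from 0 to 9 genes in female controls, 0 to 12 in female mutants and 0 to 3 in male controls, and the sex differences from 0 to 4 (stress) and 0 to 2 (genotype). The 3 unstressed male mutants limit every comparison that rests on them.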
